A study of Mus musculus with 24 samples.

Results

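Acyl-CoA thioesterases were followed through 8 Acot genes, chosen by name with earlier results of these data known. They are assigned to the cytosol (Acot1 and Acot12), the mitochondrion (Acot2 and Acot13) and the peroxisome (Acot3, Acot4, Acot6 and Acot8). Other genes of the family, such as Acot5 and Acot7, are not among them. All 8 were found among the 17537 genes listed in at least 1 of the 24 deposited liver tables. The livers came from male C57BL/6 mice weighing 20 to 30 g that were dosed by gavage. The vehicle group (CT) received 0.5% CMC, the ethanol group (EtOH) 1 g/kg body weight of ethanol, the DEHP group 2500 mg/kg body weight of di(2-ethylhexyl) phthalate, and the combination group (DE) both agents at these doses. Each group had 6 RNA-seq libraries. The labels describe 12 mice per group and do not say how mice relate to libraries, so that p-values measure the spread between these libraries, which may be technical. CMC is named as carrier of the vehicle group only, and a carrier that differed between groups cannot be told apart from the treatment.

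Acyl-CoA thioesterases cut the bond between a fatty acid and coenzyme A, releasing free fatty acid and free CoA. They work against the acyl-CoA synthetases, and in each compartment they affect how much acyl-CoA and free CoA beta-oxidation has at hand. In rodent liver several of them are known targets of PPARα, a nuclear receptor for fatty acids that is activated by peroxisome proliferators such as the main metabolite of DEHP. PPARα binds DNA together with RXR at direct repeats of the half-site AGGTCA with 1 base between them, called DR1 elements.

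The genes encoding Acot1, Acot2, Acot3, Acot4 and Acot6 lie in 1 cluster of 121.9 kb on chromosome 12, in the order Acot2, Acot1, Acot4, Acot3, Acot5, Acot6 (GRCm38.p6, as are all coordinates here). Acot2 (NCBI Gene 171210) spans positions 83987861 to 83993877, Acot1 (26897) 84009502 to 84017670, Acot4 (171282) 84037254 to 84044723, Acot3 (171281) 84052144 to 84060400 and Acot6 (217700) 84100654 to 84109783. The other members stand alone: Acot8 (170789) on chromosome 2 from 164792768 to 164820219, Acot12 (74156) on chromosome 13 from 91741326 to 91786148, and Acot13 (66834) on chromosome 13 from 24817955 to 24831489. All are protein-coding.

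Acot1 and Acot2 are close copies in their coding sequences, and this limits how well their reads can be told apart. In the GENCODE M21 transcripts paired with the tables' RefSeq accessions, their coding sequences hold 1260 and 1362 bases, and 95.6% of 1239 aligned bases are identical. The longest identical run is 273 bases. Of all 50-base words of the Acot1 coding sequence, 43.5% also occur in that of Acot2. Over the whole transcripts this share was 23.7%, with the same 527 words shared, so the parts outside the coding sequences added none. The first 123 coding bases of Acot2 (chr12:83987902-83988024, plus strand) are shown because the extra amino end of Acot2 is the part known to carry its mitochondrial targeting signal. Below them are the first 60 coding bases of Acot1 (chr12:84009510-84009569) and the next bases of Acot2 (chr12:83988025-83988084). They are lined up without a gap, with the 10 differing letters in capitals. The alignment behind the 95.6% instead paired the first 4 bases of Acot1 with the first 4 of Acot2.
Acot2, extra coding bases: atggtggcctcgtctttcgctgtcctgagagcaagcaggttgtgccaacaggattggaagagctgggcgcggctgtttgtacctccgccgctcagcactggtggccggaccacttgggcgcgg
Acot1, coding start: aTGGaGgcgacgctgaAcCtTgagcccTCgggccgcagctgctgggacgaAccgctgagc
Acot2, aligned bases: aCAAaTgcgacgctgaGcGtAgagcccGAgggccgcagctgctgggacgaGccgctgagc
The deposited expected counts of both genes were not whole numbers in 24 of 24 libraries, which shows that reads were divided between genes. For Acot4 and Acot6 this was so in 8 libraries each, for Acot3 in 1, and for Acot8, Acot12 and Acot13 in 0. Of the 50-base words in the coding sequence of Acot3, 13.7% also occur in Acot1, 2.5% in Acot2, 9.7% in Acot4, 16.4% in Acot5 and 8.8% in Acot6. For Acot4 the shares with single genes of the cluster ran from 6.8% (Acot2) to 10.7% (Acot6), and for Acot6 from 2.2% (Acot2) to 12.5% (Acot5).

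The promoter windows of RefSeq (GRCm38.p6, from 250 bases before to 50 after a gene start) were searched on both strands for the DR1 letters, 2 copies of AGGTCA with any 1 base between them (on the other strand, 2 copies of TGACCT). A window was found for 6 of the 8 members, Acot1, Acot2, Acot3, Acot4, Acot8 and Acot12, with 2 windows for Acot3. For Acot4, Acot8, Acot12 and 1 window of Acot3 the start lies inside the gene span given above, and the matches of Acot12 and Acot4 lie inside those spans too. Acot12 held the closest match, with 1 letter differing, from 110 to 98 bases before the start, and 0.554% of all 32851 windows held a match this close. Acot4 held one with 2 letters differing from 13 bases to 1 base before the start, as did 3.86% of all windows. Acot2 and Acot3 came no closer than 3 letters, which 24.6% of all windows reached, and Acot1 and Acot8 no closer than 4 and 5 letters. The 29 bases around 3 of these matches, on the plus strand with the matched letters in capitals, are shown as the closest of the promoters to the DR1 letters and, for Acot2, as 1 of its 2 equally close matches, Acot2 being the member with the largest change after DEHP. The second Acot2 match lies from 18 to 30 bases after the start.
Acot12, 1 letter differing (chr13:91741403-91741431): taggacccTGACCTCTCACCTcctaagca
Acot4, 2 letters differing (chr12:84038358-84038386): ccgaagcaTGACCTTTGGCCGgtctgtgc
Acot2, 3 letters differing (chr12:83987795-83987823): gctcagcaAGCACACAGCTCAgtctaagg
Upstream sequence of Acot1 and Acot2 is shown because these neighbouring copies both rose severalfold. The 150 bases of Acot1 from 162 to 13 bases before its start (chr12:84009340-84009489, plus strand) and the 150 bases just before the start of Acot2 (chr12:83987711-83987860, plus strand) are 52.7% and 51.3% G or C.
Acot1, upstream: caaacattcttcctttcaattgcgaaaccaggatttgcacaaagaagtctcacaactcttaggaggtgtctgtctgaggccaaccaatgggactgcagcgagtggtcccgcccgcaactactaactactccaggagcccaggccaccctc
Acot2, upstream: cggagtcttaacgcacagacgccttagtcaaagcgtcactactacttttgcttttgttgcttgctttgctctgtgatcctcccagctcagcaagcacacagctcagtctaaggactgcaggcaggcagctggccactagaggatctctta
A match of letters is a description of the window. No match says that these letters are not in this window.

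The libraries held between 7324793 and 8016662 expected counts. All 6 hepatocyte markers were above 0 in every library, with summed levels of 52436 to 68540 FPKM in vehicle, 57547 to 71067 in ethanol, 37616 to 45610 in DEHP and 39198 to 44734 in the combination, so both DEHP groups lay below both others. The part of this in the results below was not tested. FPKM is the count scaled to transcript length and to sequencing depth. By transcripts of other tissues, 3 libraries stood apart. The 6 skeletal muscle markers summed to 5313 FPKM in vehicle replicate 1 and 3940 in combination replicate 6, against group medians of 1.82 to 3.39. The 6 exocrine pancreas markers, all above 0, summed to 444 FPKM in DEHP replicate 6 and to at most 0.38 in the other groups. The 5 adipocyte markers summed to 22.9, 62.8 and 30.9 FPKM in these libraries, in the order vehicle, combination, DEHP. In the other 5 DEHP libraries 1 of the 5 was above 0 and the sum lay between 2.79 and 7.52 FPKM, beside medians of 0.51 in vehicle, 0.08 in ethanol and 1.35 in the combination. The part of these markers in the results was not tested beyond leaving out the 3 libraries. In bulk liver, fewer cells of a type and less RNA per cell cannot be told apart. Member results with and without these 3 libraries are given where the call differs.

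In vehicle liver the most abundant of the 8 transcripts per length were Acot13 at 35.1 FPKM ± 4.6 (SD, n = 6), Acot12 at 30.4 ± 5.80 and Acot1 at 28.6 ± 14.1, whose ranges overlapped. Acot8 followed at 15.4 ± 1.87, overlapping the range of Acot1, and then Acot4 at 6.89 ± 1.28 and Acot2 at 2.32 ± 0.329, whose ranges did not overlap each other or that of Acot8. Acot3 at 0.660 ± 0.273 and Acot6 at 0.278 ± 0.220 were lowest and overlapped. After DEHP the order was Acot1 at 195.8 ± 98.2, with every library above every value of the other members, then Acot13 at 45.4 ± 8.80, Acot12 at 38.1 ± 4.79, Acot8 at 33.8 ± 7.72 and Acot2 at 28.3 ± 12.2, with ranges that overlapped from each to the next. Acot4 at 12.5 ± 4.80, Acot3 at 6.03 ± 3.03 and Acot6 at 1.22 ± 0.452 came last.

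**Figure D1:**
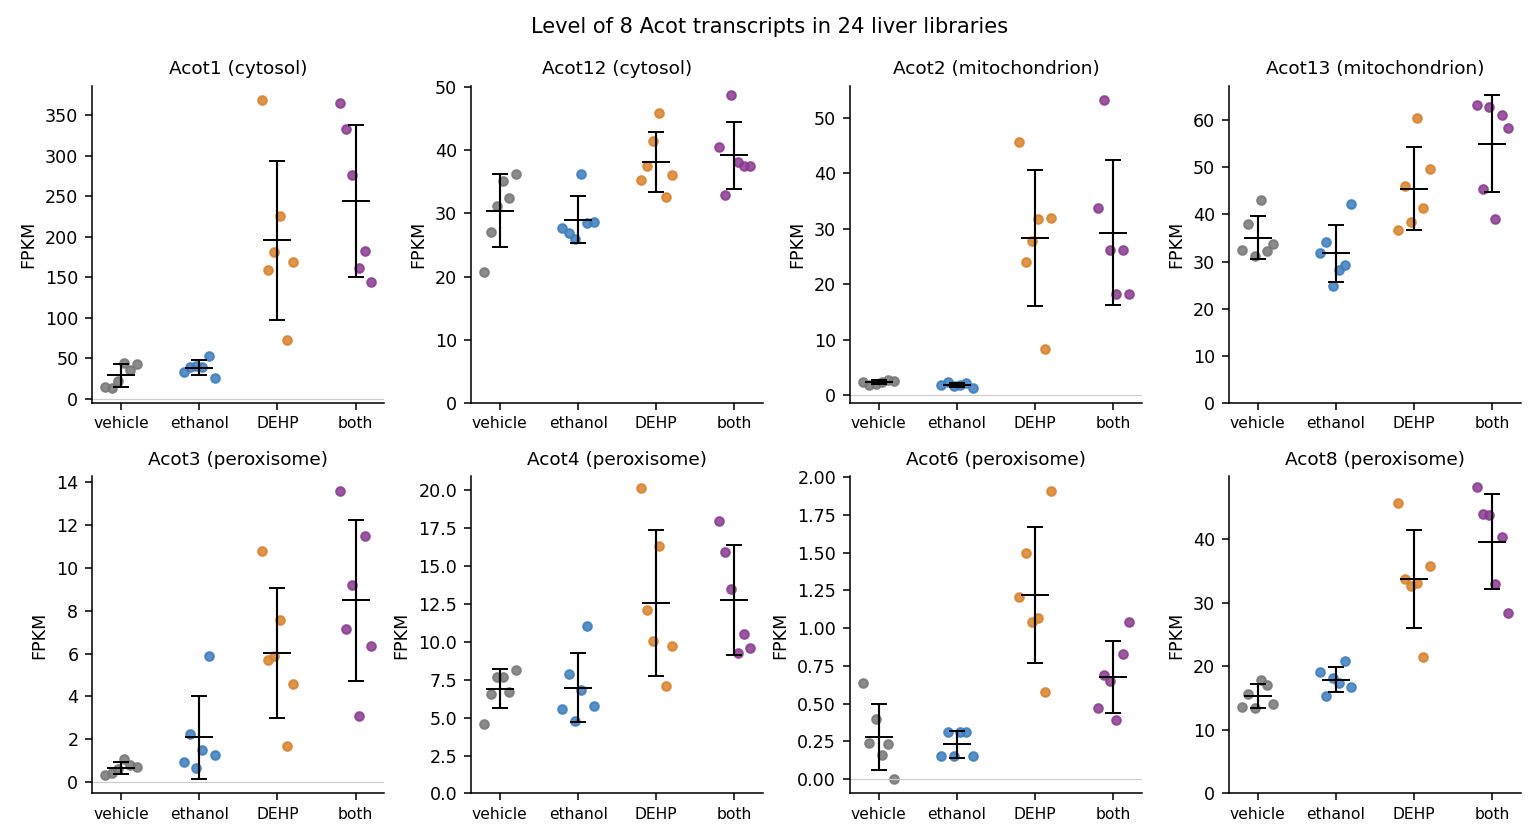
Level of the 8 Acot transcripts in FPKM (vertical axes, linear, with their own scale in each panel) in vehicle, ethanol, DEHP and DEHP with ethanol ("both"). Points are libraries, horizontal marks the means of 6 and bars 1 SD. Acot1, Acot2, Acot3 and Acot8 in the DEHP group lie above every vehicle library, while Acot12 and Acot13 overlap between these groups.

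The first comparison set DEHP against vehicle. Of the 8 members 6 were called higher and 0 lower, beside 14.4% of all 10697 genes tested called higher and 11.6% called lower. The peroxisomal members were all called. In the cytosol Acot1 was called and Acot12 was not, and in the mitochondrion Acot2 was called and Acot13 was not. Acot1 and Acot2 are the pair whose reads were divided. Calls are adjusted p-values below 0.05 from edgeR's quasi-likelihood test with Benjamini-Hochberg adjustment over all genes tested. The largest rises were those of Acot2, Acot3 and Acot1. The median log2 change of the 8 was 1.603, between Acot8 (1.12) and Acot6 (2.09), against -0.02 over all genes tested. In 4 members, Acot1, Acot2, Acot3 and Acot8, every DEHP library lay above every vehicle library, a separation that 7.24% of all genes tested showed, while 2.72% lay wholly below. Acot6 passed the filter on low values (1 FPKM in at least 6 libraries) through the DEHP groups alone, with 5 DEHP libraries and 1 combination library at that level, and Acot3 reached it in 1 vehicle library. A gene that passes mainly through the groups where it is high had to differ. The calls of Acot3 and Acot6, their part in the median and the separation of Acot3 therefore add no support.

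Acot1, the cytosolic enzyme for long-chain acyl-CoA, was measured at 12.5 FPKM in the lowest vehicle library, 28.6 at the median and 44.3 in the highest. In DEHP these values were 72.5, 174.6 and 368.3, and the groups did not overlap. The rise was 6.77-fold, a log2 change of 2.76 ± 0.35 (SE, adjusted p = 2.04e-06 by edgeR). Acot12, the cytosolic enzyme that hydrolyses acetyl-CoA, ran from 20.6 through a median of 31.8 to 36.2 FPKM in vehicle and from 32.7 through 36.8 to 45.9 in DEHP. Its groups overlapped, and the log2 change of 0.30 ± 0.12 was not called (adjusted p = 0.0561 by edgeR, 95% interval 0.06 to 0.55). Of the 8 members Acot12 had the smallest log2 change in this comparison.

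Acot2, the mitochondrial matrix enzyme for long-chain acyl-CoA, had the largest log2 change of the 8. Its levels were 1.91 FPKM in the lowest vehicle library, 2.36 at the median and 2.74 in the highest, and 8.30, 29.8 and 45.7 in DEHP. The groups did not overlap, and the rise was 12.0-fold (log2 change 3.58 ± 0.32, adjusted p = 8.55e-09 by edgeR). Since reads are divided between Acot1 and Acot2, their counts were also summed before the test, which gave a log2 change of 2.87 ± 0.34 (adjusted p = 6.30e-07 by edgeR). The second mitochondrial member, Acot13 (also called Them2, found at mitochondria and in the cytosol), ranged from 31.2 to 43.2 FPKM in vehicle and from 36.7 to 60.5 in DEHP, with medians of 33.01 and 43.7. The groups overlapped and its log2 change of 0.34 ± 0.14 was not called (adjusted p = 0.0613 by edgeR, 95% interval 0.06 to 0.63).

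Among the peroxisomal members, Acot3, an enzyme for long-chain acyl-CoA, rose from a vehicle range of 0.330 to 1.09 FPKM (median 0.655) to a DEHP range of 1.69 to 10.8 (median 5.80), with no overlap. This was 8.95-fold (log2 change 3.16 ± 0.50, adjusted p = 3.54e-05 by edgeR). Acot8, the peroxisomal enzyme with a broad range of substrates, which is inhibited by free CoA, moved less but with little spread: 13.5 to 17.9 FPKM (median 14.9) in vehicle and 21.5 to 45.7 (median 33.5) in DEHP, 2.17-fold (log2 change 1.12 ± 0.15, adjusted p = 6.26e-06 by edgeR). Its groups did not overlap, and its counts were whole in every library.

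Acot4, which hydrolyses succinyl-CoA and dicarboxylyl-CoA in mouse peroxisomes, had 4.59 to 8.14 FPKM (median 7.18) in vehicle and 7.10 to 20.1 (median 11.1) in DEHP. The lowest DEHP library lay within the vehicle range, and the rise was 1.80-fold (log2 change 0.85 ± 0.23, adjusted p = 0.00869 by edgeR). Acot6, active on branched-chain acyl-CoA, was scarce throughout. It had 0 to 0.640 FPKM in vehicle (0 to 8 expected counts) and 0.580 to 1.91 in DEHP (7 to 24 counts), and the groups overlapped at the vehicle library with muscle transcripts. The count of 0 in vehicle replicate 6 allows up to 0.242 FPKM, counting error only. Its log2 change was 2.09 ± 0.40 (adjusted p = 0.000321 by edgeR). Acot5, the sixth gene of the cluster, was listed at 0 in 5 of 6 vehicle libraries and was not tested, and it reached 1.43 FPKM (15 counts) in DEHP replicate 1. The counts of Acot3, Acot4, Acot5 and Acot6 summed rose by a log2 change of 1.36 ± 0.27 (adjusted p = 0.000646 by edgeR).

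The calls of Acot12 and Acot13 lay near the threshold. Without vehicle replicate 4 both were called, Acot12 at 0.35 (adjusted p = 0.0345 by edgeR) and Acot13 at 0.41 (adjusted p = 0.0337). Acot12 was also called with library totals alone (adjusted p = 0.0423), with limma on log2(FPKM + 1) (adjusted p = 0.0377) or log2(FPKM + 0.1) (adjusted p = 0.0384), and without vehicle replicate 6, DEHP replicate 5 or ethanol replicate 4, and Acot13 without DEHP replicate 1 or 3, combination replicate 4 or ethanol replicate 6. Over all alternatives the adjusted p ran from 0.0307 to 0.196 for Acot12 and from 0.0337 to 0.223 for Acot13.

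**Figure D2:**
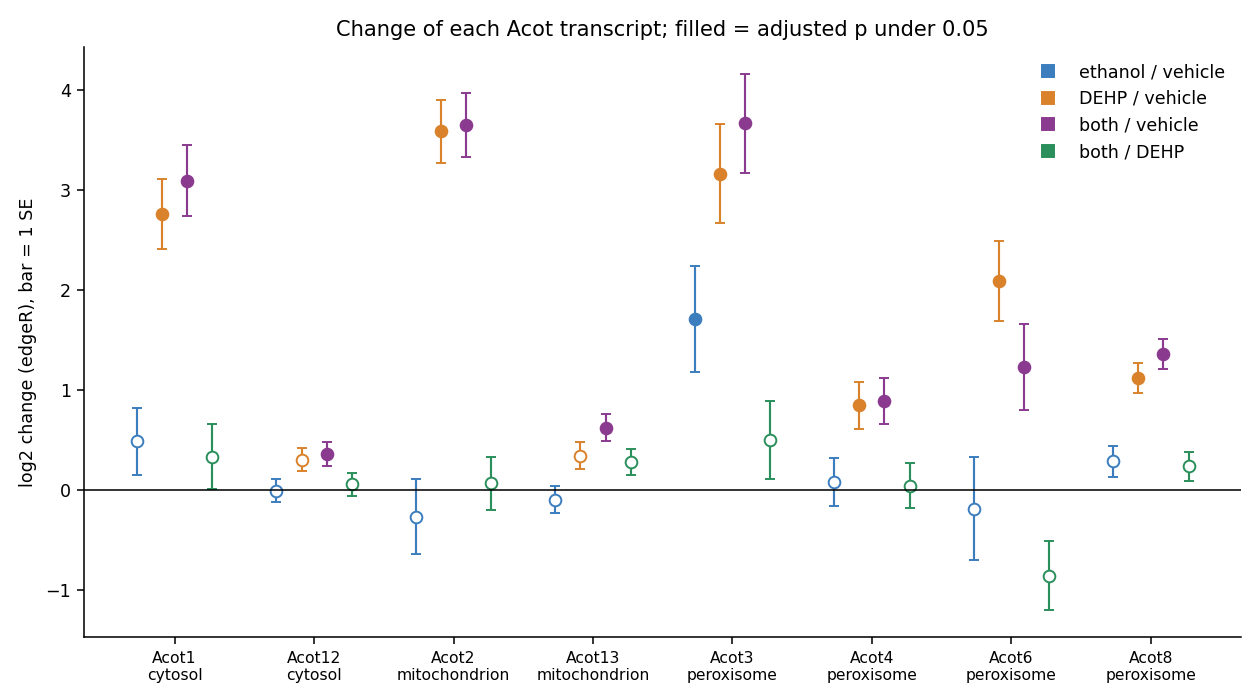
Log2 change of each Acot transcript (vertical axis, edgeR estimate, bar 1 SE) in ethanol, DEHP and the combination against vehicle, and in the combination against DEHP. Filled points have an adjusted p below 0.05. The orange and purple points of Acot1, Acot2 and Acot3 stand above 2.5, and all green points, the combination against DEHP, are open.

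Ethanol alone against vehicle gave a call in 1 member. Acot3 was called higher at a log2 change of 1.71 ± 0.53 (3.27-fold, adjusted p = 0.0178 by edgeR), and 0 members were called lower, beside 14.2% of all genes tested called higher and 14.5% lower. Scaling by library totals alone moved that split over all genes from 1524 higher and 1555 lower to 930 higher and 2061 lower, and limma on log2(FPKM + 1) gave 1090 and 1780. The Acot3 levels in ethanol were 0.680 FPKM in the lowest library, 1.39 at the median and 5.90 in the highest, which was replicate 5, and the groups overlapped, as did those of the other 7 members (3.9% of all genes tested lay wholly above vehicle and 6.76% wholly below). Without that library the log2 change was 1.06 and no call was made (adjusted p = 0.108 by edgeR). Nor was it called without the 3 libraries holding other tissues' transcripts (1.55, adjusted p = 0.0527).

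The other 7 members were not called after ethanol. Acot1 had 25.4 to 52.5 FPKM in ethanol, with a median of 39.1, and a log2 change of 0.49 (95% interval -0.22 to 1.19). Acot2 had 1.21 to 2.46 FPKM, and its change of -0.26 had an interval of -1.05 to 0.52. Acot8 had 15.4 to 20.9 FPKM and a change of 0.29 (interval -0.04 to 0.61). The intervals of Acot12 (-0.25 to 0.24) and Acot13 (-0.38 to 0.19) were the narrowest. For Acot4 the interval ran from -0.42 to 0.58, and for Acot6, at 0.150 to 0.310 FPKM, from -1.26 to 0.89.

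The ratio of Acot1 to Acot2 was a mean of 12.0 ± 5.27 (SD, n = 6) in vehicle, 21.1 ± 3.70 in ethanol, 7.04 ± 1.23 in DEHP and 8.56 ± 1.86 in the combination, computed on FPKM within each library. The ethanol range, 15.8 to 25.4, lay above both DEHP groups (5.28 to 8.73 and 6.27 to 10.8) and overlapped the vehicle range of 6.04 to 19.2. This ratio depends on how shared reads were assigned, which is not given in the sources used here. The ratio of Acot3 to Acot4, neighbours in the cluster, was 0.094 ± 0.030 in vehicle, 0.262 ± 0.142 in ethanol, 0.461 ± 0.119 in DEHP and 0.664 ± 0.264 in the combination. Every vehicle library had the lower ratio, at most 0.142, with the lowest ethanol library at 0.143.

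The combination against vehicle, which shares the vehicle libraries with both comparisons above, gave calls in all 8 members, each higher. The calls of Acot3 and Acot6, and the separation of Acot3, add no support here either, because of how they passed the filter. Of all genes tested, 19.3% were called higher and 17.4% lower. Every combination library lay above every vehicle library for Acot1, Acot2, Acot3, Acot4 and Acot8, as for 10.7% of all genes, with 5.44% wholly below. Acot1 ran from 143.6 FPKM through a median of 229.5 to 365.0 (log2 change 3.09 ± 0.35, adjusted p = 2.77e-07 by edgeR). Acot2 ran from 18.2 through 26.2 to 53.1 (3.65 ± 0.32, adjusted p = 3.54e-09). Acot3 ran from 3.10 through 8.17 to 13.6 (3.66 ± 0.49, adjusted p = 2.66e-06).

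Acot8 had 28.4 to 48.2 FPKM in the combination (median 42.1) and rose 2.57-fold (log2 change 1.36 ± 0.15, adjusted p = 2.24e-07 by edgeR). Acot4 had 9.22 to 17.96 FPKM and rose 1.85-fold (0.89 ± 0.23, adjusted p = 0.00402). Acot13, not called after DEHP alone, ran from 39.0 through 59.7 to 63.2 FPKM and rose 1.54-fold (0.62 ± 0.13, adjusted p = 0.000738), with its lowest combination library inside the vehicle range. Acot12 had 32.9 to 48.8 FPKM and a log2 change of 0.36 ± 0.12 (adjusted p = 0.0174). Acot6 had 0.390 to 1.04 FPKM and a change of 1.23 ± 0.43 (adjusted p = 0.0237).

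The calls of Acot12 and Acot6 were lost when some single libraries were left out. Acot12 was not called without vehicle replicate 1 (0.24, adjusted p = 0.0672 by edgeR), without combination replicate 3 (0.28, adjusted p = 0.0655) or without the 3 libraries holding other tissues' transcripts (0.26, adjusted p = 0.0624). Acot6 was not called without vehicle replicate 4 (1.12, adjusted p = 0.0506) or combination replicate 6 (1.07, adjusted p = 0.0576). With the 2 compared groups fitted alone neither was called (adjusted p = 0.0573 for Acot12 and 0.0529 for Acot6), so that 6 of 8 members were, and with no filter on low values Acot6 was not called (adjusted p = 0.0546).

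The combination against ethanol asks what DEHP did in mice that also received ethanol. Again all 8 members were called higher, beside 15.1% of all genes called higher and 12.7% lower. With library totals alone the numbers over all genes moved from 1620 higher and 1356 lower to 2198 and 915, and with limma on log2(FPKM + 1) to 2110 and 942. Acot2 rose 15.1-fold (log2 change 3.92 ± 0.33, adjusted p = 1.74e-09 by edgeR), Acot1 6.09-fold (2.61 ± 0.34, adjusted p = 2.50e-06) and Acot3 3.87-fold (1.95 ± 0.42, adjusted p = 0.000972). Without ethanol replicate 5, the log2 change of Acot3 was 2.61. The groups did not overlap for Acot1, Acot2, Acot6 and Acot8, as for 11.3% of all genes, with 4.36% wholly below. Neither the call of Acot6 nor this separation of its groups adds support, since Acot6 passed the filter through the DEHP groups alone.

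Of the rest in the same comparison, Acot8 changed by 1.07 ± 0.15 on the log2 scale (adjusted p = 5.90e-06 by edgeR), Acot6 by 1.41 ± 0.44 (adjusted p = 0.0153), Acot4 by 0.81 ± 0.23 (adjusted p = 0.00976), Acot13 by 0.72 ± 0.13 (adjusted p = 0.000216) and Acot12 by 0.37 ± 0.12 (adjusted p = 0.0198). Acot12 was not called without combination replicate 3 (0.29, adjusted p = 0.0752) or ethanol replicate 3 (0.33, adjusted p = 0.0537), or with no filter on low values (0.35, adjusted p = 0.0515).

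Adding ethanol to DEHP gave no call. In the combination against DEHP, 0 of the 8 members were called higher and 0 lower by edgeR, and 0 by DESeq2, while 0.0467% of all genes were called higher and 0.0748% lower by edgeR. At an unadjusted p under 0.05 there were 2 members, Acot13 with a log2 change of 0.28 (edgeR's adjusted p = 0.452, 95% interval 0.00 to 0.56), and Acot6 with -0.86 (adjusted p = 0.366, interval -1.58 to -0.14). The intervals of the others were -0.33 to 1.01 for Acot1, -0.48 to 0.61 for Acot2, -0.31 to 1.31 for Acot3, -0.43 to 0.51 for Acot4, -0.06 to 0.54 for Acot8 and -0.18 to 0.30 for Acot12. The widest was that of Acot3 among these 6 and the narrowest that of Acot12.

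The interaction asks whether the ethanol effect differed with and without DEHP, and is the difference between those log2 changes (with minus without). It was called in 0 of 8 members in each direction by edgeR and by DESeq2, beside 3.32% of all genes called higher and 3.09% lower. Library totals alone moved the counts over all genes from 355 higher and 331 lower to 447 and 203. At an unadjusted p under 0.05 there were 0 members. The values furthest from 0 were -1.21 for Acot3 (edgeR's adjusted p = 0.27, 95% interval -2.59 to 0.17) and -0.67 for Acot6 (interval -1.97 to 0.62). Acot13 had 0.37 (edgeR's adjusted p = 0.234, interval -0.02 to 0.77).

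Summed over the 8 members, thioesterase transcript was 119.6 FPKM ± 23.7 (SD, n = 6) in vehicle, 128.1 ± 12.2 in ethanol, 361.2 ± 125.1 in DEHP and 428.8 ± 120.2 in the combination. The lowest DEHP library, at 185.7, lay above the highest vehicle and ethanol libraries, at 151.8 and 150.4. The shares of the compartments also differed, with Acot13 counted as mitochondrial though it is found in the cytosol too. Acot13 made up 30.0% of the sum in vehicle and 13.9% in DEHP. The split between cytosol and mitochondrion therefore depends on where Acot13 is counted, and on how reads were divided between Acot1 and Acot2. The cytosolic share was 48.3% ± 7.61 in vehicle, 52.5% ± 4.80 in ethanol, 63.4% ± 5.13 in DEHP and 65.2% ± 4.51 in the combination. The mitochondrial share was 32.0% ± 5.61, 26.4% ± 5.52, 21.5% ± 4.14 and 20.2% ± 3.38, and the peroxisomal share 19.7% ± 2.23, 21.1% ± 2.17, 15.1% ± 1.29 and 14.6% ± 1.48, in the same order.

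The part of Acot1 in the 8-member sum was 22.8% ± 7.63 in vehicle, 29.7% ± 5.19 in ethanol, 51.8% ± 8.49 in DEHP and 55.5% ± 6.54 in the combination. Its lowest DEHP library, at 39.0%, lay above the highest vehicle library, at 31.0%. Acot2 moved from 1.99% ± 0.401 to 7.56% ± 1.67 after DEHP. Acot13 moved from 30.0% ± 5.44 to 13.9% ± 5.15 and Acot12 from 25.5% ± 2.13 to 11.6% ± 3.64, although the level of neither was lower. Shares of a sum are tied to each other and are given without a test.

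**Figure D3:**
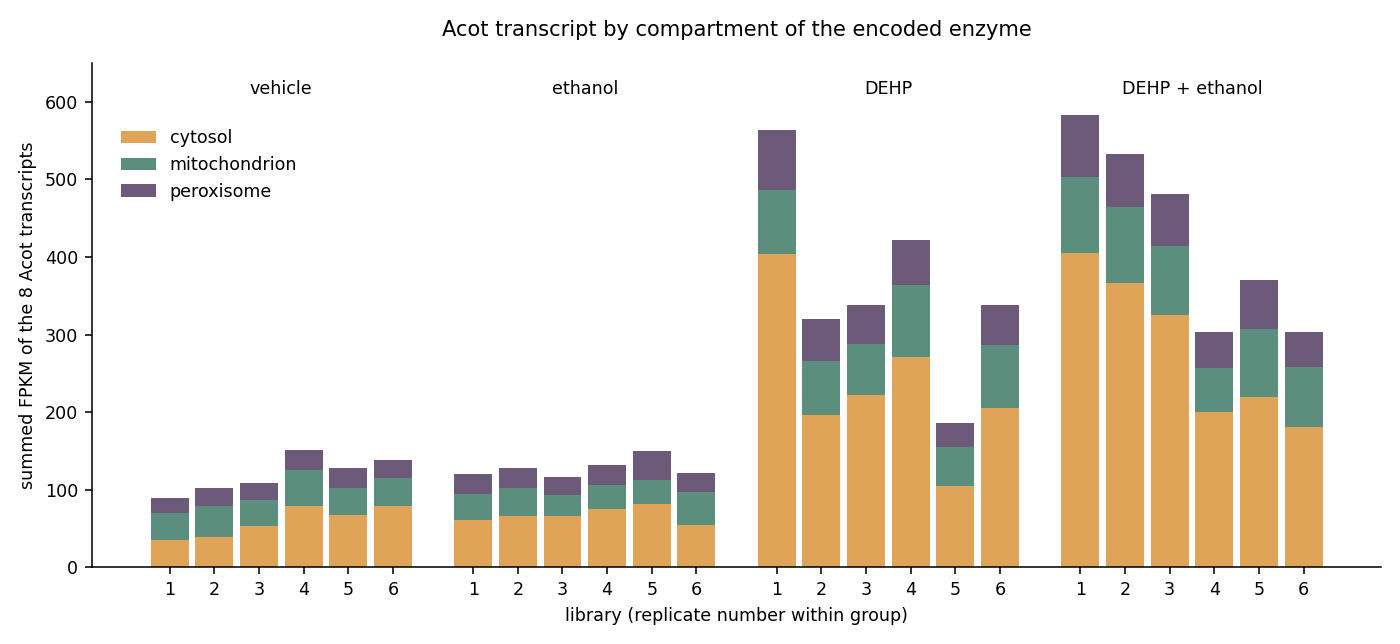
Summed FPKM of the 8 Acot transcripts in each library (bars from 0, replicate numbers on the horizontal axis). Bars are split by the compartment of the encoded enzyme, with Acot13 counted as mitochondrial. The cytosolic part is the largest in every DEHP and combination library, and DEHP replicate 5 has the lowest total of these groups at 185.7 FPKM.

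Within a group the members varied together in part. DEHP replicate 5 had the lowest value of its group for 7 of 8 members, and DEHP replicate 1 the highest for 5. In the combination, replicate 1 was highest for 5 and replicate 4 lowest for 4. After the group means were subtracted, log2(FPKM + 1) of Acot3 and Acot4 had a Pearson r of 0.84 over the 24 libraries, Acot1 and Acot4 0.79, Acot2 and Acot8 0.78, and Acot1 and Acot2 0.76. Acot2 and Acot8 lie on different chromosomes and share no divided reads, and what makes members vary together was not tested. Acot13 had lower values with these members: its r was -0.01 with Acot1, -0.01 with Acot2, 0.09 with Acot8, 0.15 with Acot4 and 0.31 with Acot3. So did Acot6, from -0.08 with Acot1 to 0.34 with Acot2, and Acot12, from 0.08 with Acot2 to 0.48 with Acot1. Acot6 had at most 24 counts in a library, so counting error limits what its r can show. Both genes of a pair share each library and its depth, and no p-value is given.

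**Figure D4:**
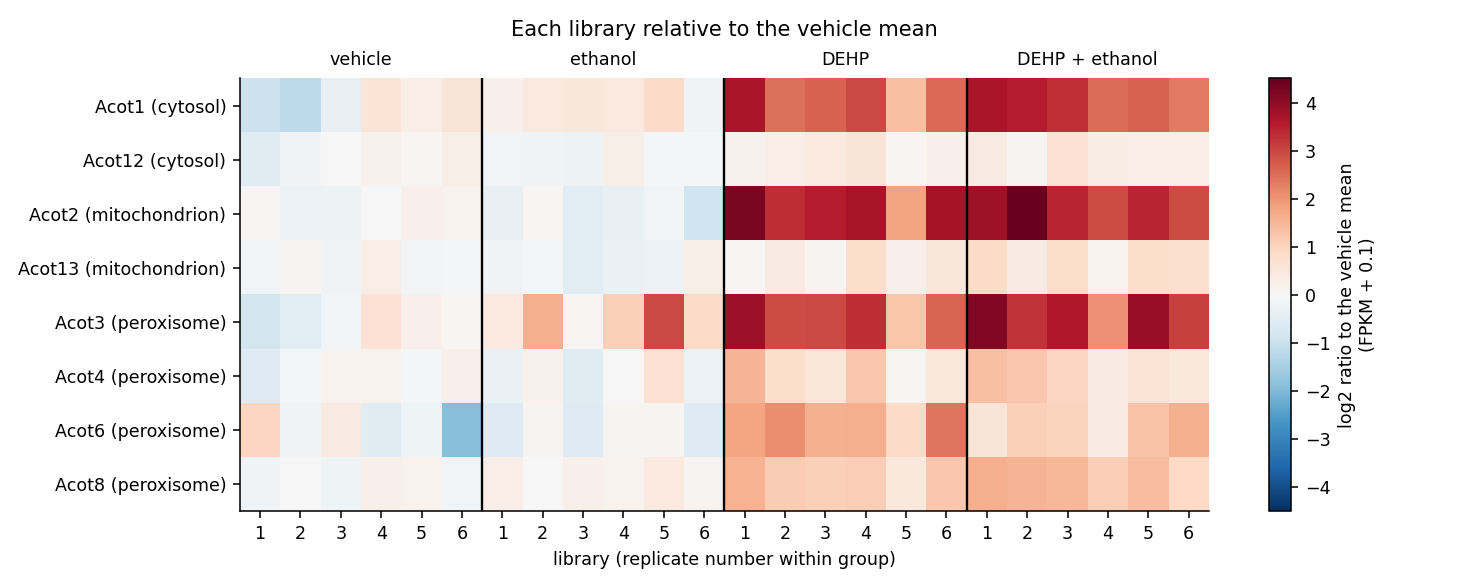
Log2 ratio of each library to the vehicle mean (colour, FPKM + 0.1) for the 8 members (rows) in 24 libraries (columns, by group). DEHP replicate 5 is the palest column of its group in most rows, and ethanol replicate 5 stands out in the Acot3 row.

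The genes whose level most resembled that of the most abundant member of each compartment were named by their Pearson r in log2(FPKM + 1) over the 24 libraries, with the value after subtraction of group means beside it. For Acot1 they were Slc25a20, the carnitine-acylcarnitine carrier of the inner mitochondrial membrane (0.98 and 0.89), Ephx2, soluble epoxide hydrolase (0.98 and 0.83), Aldh3a2, fatty aldehyde dehydrogenase (0.97 and 0.88), Acaa1b, a peroxisomal thiolase (0.97 and 0.87), and Creg1 (0.97 and 0.83). For Acot8 they were Cpt2, the inner carnitine palmitoyltransferase (0.97 and 0.83), Dhrs7b (0.97 and 0.80), Acaa1a, the second peroxisomal thiolase (0.97 and 0.85), Slc25a20 (0.97 and 0.79) and Grhpr, glyoxylate reductase (0.96 and 0.76). For Acot13 they were another set: Slc16a7, a monocarboxylate transporter (0.92 and 0.80), Mpc1, a subunit of the mitochondrial pyruvate carrier (0.90 and 0.69), Slc25a5, an ADP/ATP carrier (0.88 and 0.69), Dap3, a mitochondrial ribosomal protein (0.87 and 0.75), and Prdx3, mitochondrial peroxiredoxin (0.87 and 0.71).

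Genes beside the Acot cluster gave no call after DEHP. Within 100 kb of the cluster's members the RefSeq gene table lists 19 genes, of which 11 were in the deposited tables and 8 reached the filter, 5 of them members. The 3 others were Numb, an inhibitor of Notch signalling (log2 change -0.09 ± 0.08, adjusted p = 0.471 by edgeR), Riox1, a nucleolar oxygenase (0.26 ± 0.18, adjusted p = 0.296), and Mideas (-0.41 ± 0.17, adjusted p = 0.0719). After ethanol Mideas was lower, with a log2 change of -0.53 ± 0.17 (adjusted p = 0.0198 by edgeR), and Numb and Riox1 were not called.

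Other enzymes that act on acyl-CoA thioesters without being among the 8 were called in both directions after DEHP. Of 12 listed thioesterases and acyltransferases 9 were tested, 3 were called higher and 2 lower. Of all genes tested, 14.4% were called higher and 11.6% lower after DEHP, beside which each list below is to be read. The median log2 change of this list was -0.10 against -0.02 over all genes. Them7 rose from 9.32 FPKM ± 1.097 (SD, n = 6) to 22.3 ± 2.90 (log2 change 1.24 ± 0.12, adjusted p = 4.17e-08 by edgeR), Them6 by 0.77 ± 0.18 (adjusted p = 0.0028) and Acot7, an enzyme best known from brain, by 0.44 ± 0.12 (adjusted p = 0.0101). Acnat1, a peroxisomal acyltransferase that conjugates fatty acids to taurine, was lower with a log2 change of -0.40 ± 0.10 (adjusted p = 0.00564), and so was Baat, which conjugates bile acids to amino acids, with -0.29 ± 0.09 (adjusted p = 0.0198). Baat lies outside the rule for named genes and was chosen after its values were seen.

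The enzymes that make acyl-CoA were called higher or not at all. Of 20 acyl-CoA synthetase genes 15 were tested, 9 were called higher and 0 lower after DEHP, with a median log2 change of 0.61. Slc27a1, a fatty acid transport protein with synthetase activity, went from 3.96 FPKM ± 2.57 to 30.4 ± 9.98 (log2 change 2.94 ± 0.26, adjusted p = 9.32e-09 by edgeR). Acss3, a mitochondrial short-chain synthetase, rose by 1.44 ± 0.19, Acsf3, the malonyl-CoA synthetase of mitochondria, by 0.99 ± 0.09 and Acsf2 by 0.95 ± 0.09 on the log2 scale. In the combination against vehicle 10 were called higher and 0 lower, beside 19.3% and 17.4% of all genes tested.

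Among 9 genes of CoA synthesis and precursor supply, all tested, 4 were called higher and 0 lower after DEHP, with a median log2 change of 0.25. Vnn1, pantetheinase, which releases pantothenate, rose from 9.96 FPKM ± 3.48 to 65.2 ± 16.6 (log2 change 2.69 ± 0.22, adjusted p = 2.26e-09 by edgeR). Coasy, which performs the last steps of CoA synthesis, rose by 0.56 ± 0.07 (adjusted p = 1.04e-06), Ppcs by 0.45 ± 0.11 (adjusted p = 0.00477) and Slc5a6, the vitamin transporter that takes up pantothenate, by 0.44 ± 0.16 (adjusted p = 0.0414). The pantothenate kinases Pank1, Pank2 and Pank3, which control the first step, had log2 changes of -0.01, 0.13 and 0.24 and were not called. Nor was Pank4, of the same gene family, with -0.13. Of 4 listed nudix enzymes, Nudt7, Nudt8, Nudt12 and Nudt19, 0 were called by edgeR after DEHP, with log2 changes from -0.42 to 0.24.

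Beta-oxidation, which uses the substrates of the thioesterases, had 12 of 17 peroxisomal genes called higher and 0 lower after DEHP (median log2 change 0.71), and 15 of 17 mitochondrial genes higher and 0 lower (median 0.74). The peroxisomal list ranged more widely. Ehhadh, the peroxisomal bifunctional enzyme, changed by 4.63 ± 0.24 on the log2 scale (adjusted p = 4.15e-13 by edgeR), Acaa1b by 2.54 ± 0.21 and Ech1 by 1.33 ± 0.11. In mitochondria Eci1 changed by 1.48 ± 0.10, Decr1 by 1.30 ± 0.10, Hadhb by 1.00 ± 0.09 and Acadl by 0.98 ± 0.09. The change of Acot2, at 3.58, was above the largest of the mitochondrial beta-oxidation list.

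Of 10 genes for PPAR receptors and partners 9 were tested, with 1 called higher and 2 lower after DEHP. Of all genes tested these shares were 14.4% and 11.6%. Ppara, the receptor named above, had a log2 change of -0.18 ± 0.12 and was not called (adjusted p = 0.299 by edgeR), and its partner Rxra had 0.01 ± 0.09. Pparg was higher by 0.72 ± 0.15 (adjusted p = 0.00107), while Ppard and Hnf4a were lower, with -0.68 ± 0.21 (adjusted p = 0.0183) and -0.37 ± 0.09 (adjusted p = 0.00381). In the combination against vehicle Ppara was lower with -0.37 ± 0.12 (adjusted p = 0.0211 by edgeR).

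**Figure D5:**
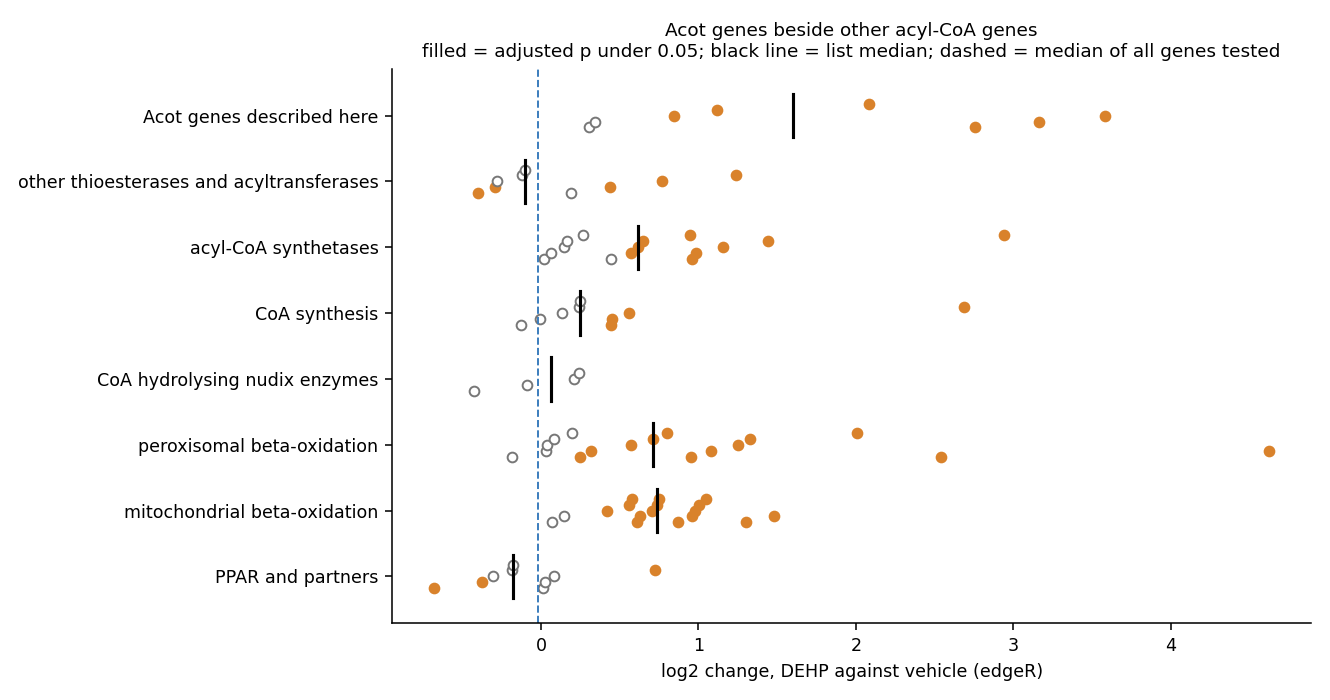
Log2 change after DEHP against vehicle (horizontal axis, edgeR) of each tested gene in the 8 Acot members and 7 lists of related genes. Filled points have an adjusted p below 0.05, black lines mark list medians and the dashed line the median of all genes tested. The Acot members have a median of 1.603, which includes Acot3 and Acot6. These 2 passed the filter mainly through the groups where they are high. The synthetases have a median of 0.61, and the list of other thioesterases and acyltransferases -0.10.

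After ethanol, calls in these lists went both ways, beside the 14.2% of all genes called higher and 14.5% lower given above. Of 15 synthetases 1 was called higher and 1 lower, of 9 genes of CoA synthesis 2 and 0, and of 4 nudix enzymes 0 and 1. Of 17 genes of peroxisomal beta-oxidation these numbers were 2 and 1, and of 17 of mitochondrial beta-oxidation 4 and 2. Of 9 other thioesterases and acyltransferases they were 2 and 3. Of 9 PPAR genes and partners 1 was called higher and 3 lower. Ppard, a PPAR found in most tissues, was lower after ethanol with a log2 change of -2.53 ± 0.23 (adjusted p = 3.17e-08 by edgeR) and had an interaction of 2.68 ± 0.31 (adjusted p = 1.07e-05). Ppargc1a, a coactivator of PPARs, was lower with -1.04 ± 0.19 (adjusted p = 0.00041), and Rxra was higher by 0.33 ± 0.09 (adjusted p = 0.00686). Acnat1 was lower after ethanol by a log2 change of -0.76 ± 0.10 (adjusted p = 1.18e-05 by edgeR), and its interaction of 0.65 ± 0.15 was called (adjusted p = 0.00883), which 0 of the 8 members showed. Slc5a6 was higher after ethanol by 0.85 ± 0.16 (adjusted p = 0.00041 by edgeR) and had an interaction of -0.90 ± 0.22 (adjusted p = 0.0156).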

How the data were processed

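RNA of 24 mouse liver libraries was measured by sequencing of TruSeq libraries made from 1 ug of total RNA, per the labels' protocols. The authors deposited, for each library, an expected count, an FPKM value and a transcript length per gene, per the file headers; genes absent from a table were taken as 0. The submitters' processing notes name Cuffdiff and the builds mm10 and GRCm38. How reads were aligned, and how shared reads and strand were treated, is not given in the sources used here. The members and lists were chosen with earlier results of these data known. Groups came from sample titles.

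After rounding, expected counts of all 4 groups entered 1 quasi-likelihood fit (edgeR 4.0.16 in R 4.3.3, TMM factors) with 20 residual degrees of freedom, over 10697 genes with at least 1 FPKM in at least 6 libraries. A gene was called at a Benjamini-Hochberg adjusted p below 0.05. SE is the unshrunken change over the square root of F. On counts simulated for DEHP against vehicle over 10697 genes, 55.2%, 91% and 98.5% of 1.5-fold, 2-fold and 4-fold changes were recovered. The changed genes, 67, 67 and 66 in this order, excluded those with low vehicle counts, so these shares do not cover Acot6. All 8 members are named; from each list, up to 4 genes with the smallest adjusted p after DEHP, and any gene of lists of 10 or fewer. A gene that this rule would name is not reported here. Alternatives were DESeq2 1.42.0, limma 3.58.1 on log2(FPKM + 1) and log2(FPKM + 0.1), other scalings and filters, summed counts, 2 groups alone, a replicate block, and leaving out each library or the 3 with other tissues' transcripts. The promoter windows and locations come from RefSeq, the transcripts from GENCODE M21.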

Additional observations from a re-analysis of the deposited data

Results flagged for a closer look

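Of 32 checks of single groups (8 members in 4 groups of 6), 2 had a library far from the other 5, and chance gives about 1 in 20 such groups. Acot3 in ethanol replicate 5 was at 5.90 FPKM, with the gap to the next library, at 2.25, being 0.70 of the group's range. Acot12 in ethanol replicate 4 was at 36.3 FPKM, with a gap of 0.73 of the range. The same library, ethanol replicate 5, also had the highest value of its group for Acot1, Acot4 and Acot8.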

How the results depend on the processing

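Of the values recomputed with 1 library left out, 1108 kept their direction and side of the threshold, 9 moved past it, 7 fell short of it and 28 changed sign. Under the other alternatives these numbers were 505, 4, 8 and 19. All values that changed sign belong to members not called in that comparison. The count of members called higher after ethanol, 1, was 0 with limma on log2(FPKM + 1), with a filter of 1 FPKM in all 24 libraries (which removes Acot3) and without the 3 libraries, and between 0 and 1 when single libraries were left out. After DEHP the count of 6 ran from 6 to 8 without single libraries and from 4 to 7 otherwise, the 4 from a filter that removes Acot3 and Acot6. For the combination, against vehicle and against ethanol, the count of 8 ran from 7 to 8 without single libraries and from 6 to 8 otherwise. The replicate block called Acot12 after DEHP (0.31, adjusted p = 0.042 by edgeR) and changed no other member's call. The labels do not say that a number marks a pair, and the correlation of the deviations of same-numbered libraries had a median of -0.01 over 36 pairs, with 6 above 0.1.

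The log2 changes below are those with changed signs. With counts of close copies summed, Acot2 and Acot6 had 0.42 and 0.33 after ethanol, Acot6 had 0.19 in the combination against DEHP, and Acot2 had -0.13 in the interaction. Acot12 after ethanol had 0.010 with upper quartile factors and 5e-04 with the replicate block. Acot4 after ethanol had -0.013 with limma on log2(FPKM + 1) and -0.017 on log2(FPKM + 0.1). In the interaction, Acot4 and Acot8 had 0.018 and 0.017 with library totals alone, 0.068 and 0.020 with limma on log2(FPKM + 1), and 0.080 and 0.014 on log2(FPKM + 0.1). Without the 3 libraries holding other tissues' transcripts, Acot4 and Acot6 had -0.037 and 0.20 after ethanol, and Acot1, Acot4 and Acot8 had 0.074, 0.086 and 0.0999 in the interaction. With single libraries left out, the range after ethanol was -0.12 to 0.052 for Acot12, -0.10 to 0.16 for Acot4 and -0.44 to 0.21 for Acot6. In the combination against DEHP it was -0.20 to 0.27 for Acot2, -0.019 to 0.098 for Acot12 and -0.094 to 0.24 for Acot4. In the interaction it was -0.33 to 0.14 for Acot1, -0.013 to 0.16 for Acot12, -0.17 to 0.16 for Acot4 and -0.15 to 0.066 for Acot8. The cause was not tested, beyond the summing itself.

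On the log2(FPKM + 1) scale the changes of low genes are smaller, 0.79 for Acot6 and 1.97 for Acot3 after DEHP. Depth limits Acot6, with at most 24 counts in a library, and Acot5.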
